A study of Mus musculus with 48 samples.

Results

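The germ-free effect on the liver late in the light phase was read from 8 of the series' 48 libraries, those of zeitgeber time (ZT) 10. Zeitgeber time counts the hours of the imposed light cycle. The 8 libraries are 4 of germ-free mice (GF), which have no microbiota, and 4 of conventionally raised mice (convR), with 2 females and 2 males in each. All mice were C57BL/6J, 15 to 16 weeks old and fed ad libitum, and the other 40 libraries hold the same groups at ZT2, ZT6, ZT14, ZT18 and ZT22. Total RNA from whole liver was sequenced after removal of ribosomal RNA, and counts per gene were deposited in 1 table per sex, so that sex and table cannot be told apart. The labels do not say that each library is a separate animal, and p-values therefore measure the spread between libraries.

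Mice are nocturnal, and late in the light phase their liver stands before the main feeding period. The circadian clock of the liver is a loop in which CLOCK and BMAL1 (gene Arntl) drive Per, Cry and Bhlhe40 genes, whose products repress that drive, and it times lipid synthesis and the metabolism of foreign compounds. Gut bacteria supply the liver with bile acid derivatives and other metabolites that reach nuclear receptors such as PXR (gene Nr1i2). The comparison asks which liver transcripts differ between GF and convR mice at this time, and which of the differences are particular to it.

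Total counts ran from 36287152 to 74892274 in the 4 convR libraries and from 35049689 to 46100077 in the 4 GF libraries. All 10 hepatocyte markers were present, at a summed 115110.0 to 132465 counts per 1000000 counts of a library (CPM) in convR and 123987 to 164542 in GF. A pair of libraries stood apart. The second convR male library was the deepest and held skeletal muscle markers at a summed 111 CPM over 9 genes, against 0.303 to 0.672 in the other 7. The second GF female library held 175 CPM of Nnt, a mitochondrial transhydrogenase gene that is partly deleted in C57BL/6J mice, against 55.5 to 64.3 CPM in the other 7. In whole liver, fewer cells of a type and less RNA per cell cannot be told apart.

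At ZT10 the GF liver held more RNA of metallothionein 2, a pair of linker histones and the glyoxylate enzyme Agxt, and less RNA of 4 carboxylesterases, the secreted protein tsukushi and the clock repressor Bhlhe40. Of 16549 genes tested, 83 passed an adjusted p of 0.05, which is 0.502% (edgeR quasi-likelihood F test with sex as a block and Benjamini-Hochberg adjustment). In GF, 31 were higher (0.187%) and 52 lower (0.314%), and with library size as the only scaling the split was 32 higher and 118 lower. Of the 83, 82 had the same direction in females and in males. All 4 GF libraries lay on one side of all 4 convR libraries for 53 of the 83, against 6.67% of all genes tested. The 83 were chosen by the test on these same libraries, so a high share follows from that choice. In a model of all 48 libraries, 445 of 17867 genes were called at ZT10 (2.49%), 203 higher (1.14%) and 242 lower (1.35%), and these included 64 of the 83. DESeq2 on the 8 libraries called 312 higher (1.89%) and 425 lower (2.57%). Below, rose, fell and called refer to the edgeR fit of the 8 libraries unless another is named.

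With 2 libraries per sex and group, the number of calls depended on single libraries. When 1 library was left out, the count was 49 without the first and 9 without the second convR female, 36 without the first GF female, 23 and 4 without the first and second convR male, 30 and 4 without the first and second GF male, and 96 without the second GF female. All 83 genes kept their direction in each of the 8 fits. Each of these fits reuses libraries that chose the 83, so kept directions and low unadjusted p-values largely follow from that choice. Without the convR male library that held muscle markers, all 83 still had an unadjusted p under 0.05, and 4 passed after adjustment. Without the GF female library high in Nnt, 51 of the 83 passed. Only Hist1h4m and Cib3 passed in all 8 fits. Ces2c passed in 7 and Lhpp in 6, and of genes chosen after their values were seen, Mup16 passed in 7 and Sgce and a predicted gene in 6.

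**Figure D1:**
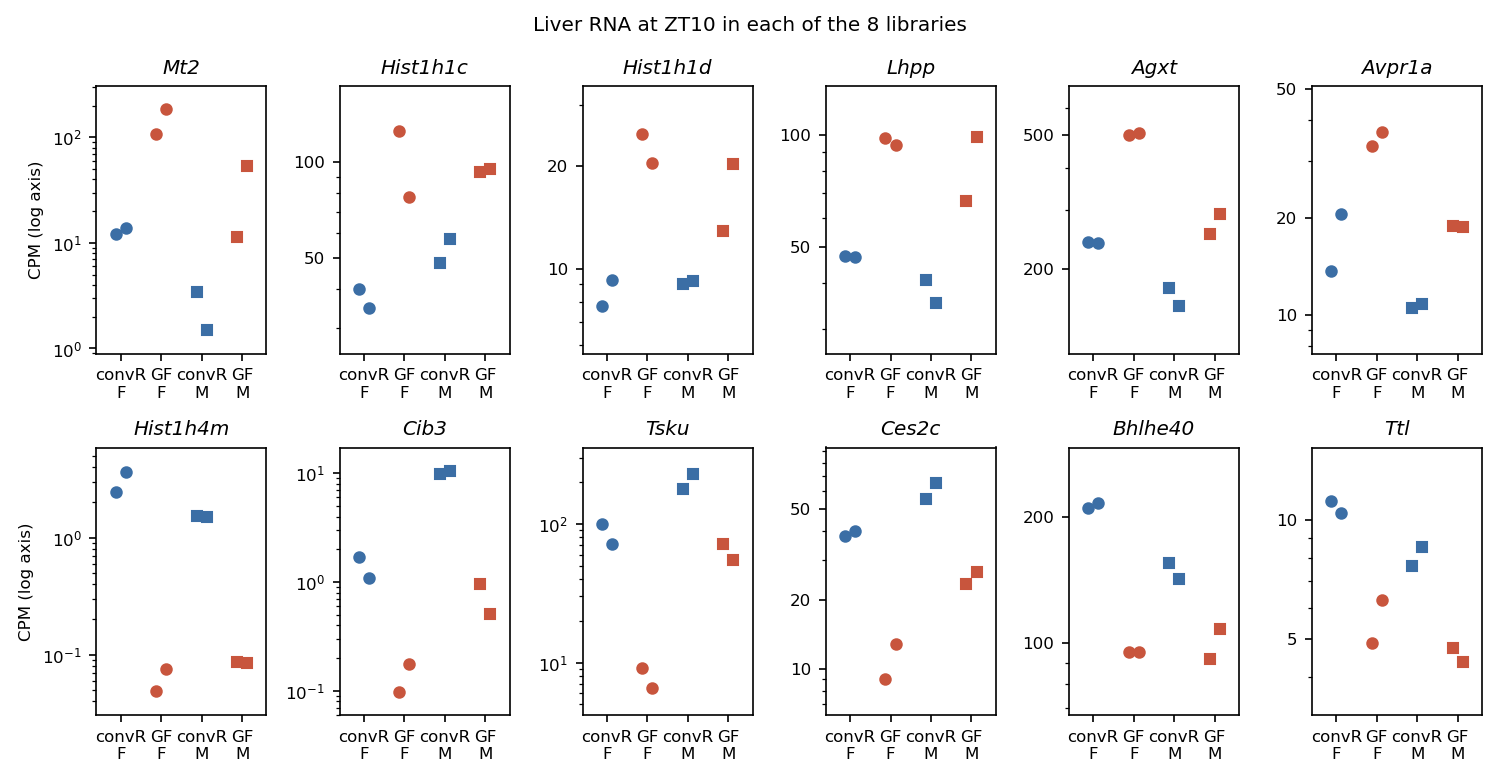
Level of 12 genes in each of the 8 libraries of ZT10, in CPM on a log axis, with convR in blue, GF in red, females (F) as circles and males (M) as squares, 1 point per library. The upper row holds genes higher in GF and the lower row genes lower in GF. The highest GF value of Hist1h4m is 0.0868 CPM and its lowest convR value 1.48 CPM.

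Among the genes that rose, Mt2 had the largest fold change of those named. Mt2 (ENSMUSG00000031762, chromosome 8, 94172664 to 94173568, GRCm38) encodes metallothionein 2, a small protein that binds zinc and copper. Its level was 12.2 and 13.8 CPM in convR females, 108 and 185 in GF females, 3.44 and 1.48 in convR males, and 11.4 and 53.0 in GF males. Within each sex both GF libraries lay above both convR libraries, although the first GF male lay below the convR females (log2 fold change 3.71 ± 0.48, edgeR adjusted p = 0.028). The neighbouring metallothionein gene Mt1 had 192 and 129 CPM in convR females, 298 and 596 in GF females, 24.9 and 10.5 in convR males, and 97.0 and 232 in GF males, and its difference did not pass (log2 fold change 2.42 ± 0.49, edgeR adjusted p = 0.0734). Mt2 passed in 3 of the 8 fits that left out 1 library.

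A pair of linker histone genes rose as well. Hist1h1c and Hist1h1d encode H1 subtypes, which bind the DNA between nucleosomes. Hist1h1c (ENSMUSG00000036181, chromosome 13, 23738808 to 23740367) had 40.0 and 34.7 CPM in convR females, 125 and 77.8 in GF females, 48.1 and 57.2 in convR males, and 93.3 and 95.4 in GF males. Every GF library lay above every convR library (log2 fold change 1.22 ± 0.19, edgeR adjusted p = 0.0376). Hist1h1d (ENSMUSG00000052565, chromosome 13, 23553262 to 23560686) had 7.80 and 9.26 CPM in convR females, 24.8 and 20.4 in GF females, 9.04 and 9.21 in convR males, and 12.9 and 20.2 in GF males, again with no overlap (log2 fold change 1.21 ± 0.19, edgeR adjusted p = 0.0376). Hist1h1e had 32.9 and 31.9 CPM in convR females, 98.3 and 101 in GF females, 42.8 and 55.1 in convR males, and 72.6 and 70.2 in GF males, also with no overlap, but it did not pass over both sexes (log2 fold change 1.15 ± 0.21, edgeR adjusted p = 0.0598). The other H1 genes of the cluster, Hist1h1a and Hist1h1b, had log2 fold changes of 0.08 and 0.17. Of the 5 H1 genes tested, 2 rose and 0 fell, with a median of 1.15 against 0.00 over all genes tested, and this family was chosen after its values were seen. How reads shared by copies of histone genes were counted is not given in the sources used here, so values are uncertain between members. Hist1h1c passed in 2 of the 8 fits that left out 1 library and Hist1h1d in 1.

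The 5 H1 genes lie within the Hist1 cluster of chromosome 13, and the stretches before their starts are shown because the genes differed in how far they moved. Each sequence is the 130 bases before the start that RefSeq gives (GRCm38.p6), read 5′ to 3′ on the strand of the gene, with the H1 box AAACACA, an element known from linker histone promoters, and the CCAAT box (ATTGG on the other strand) in capitals.
Hist1h1c (chr13:23738677-23738806, plus strand): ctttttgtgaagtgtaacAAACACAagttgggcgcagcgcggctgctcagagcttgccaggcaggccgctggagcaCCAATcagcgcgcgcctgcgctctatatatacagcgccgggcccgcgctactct
Hist1h1d (chr13:23554902-23555031, plus strand): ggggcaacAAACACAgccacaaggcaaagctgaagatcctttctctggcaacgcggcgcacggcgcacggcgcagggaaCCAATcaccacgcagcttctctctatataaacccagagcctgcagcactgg
Hist1h1e (chr13:23622559-23622688, minus strand): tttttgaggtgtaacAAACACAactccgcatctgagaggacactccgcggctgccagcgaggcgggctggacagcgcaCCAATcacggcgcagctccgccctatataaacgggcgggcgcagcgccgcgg
Hist1h1b (chr13:21780626-21780755, minus strand): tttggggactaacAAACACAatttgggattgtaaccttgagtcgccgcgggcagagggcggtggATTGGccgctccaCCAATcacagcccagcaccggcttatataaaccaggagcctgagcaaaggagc
Hist1h1a (chr13:23763538-23763667, plus strand): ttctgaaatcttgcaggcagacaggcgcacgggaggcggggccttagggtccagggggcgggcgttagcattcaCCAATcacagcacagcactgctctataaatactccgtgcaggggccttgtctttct
The H1 box stood in 4 of the 5, beginning 112 bases before the start in Hist1h1c, 122 in Hist1h1d, 115 in Hist1h1e and 117 in Hist1h1b, and its letters were not in the Hist1h1a window. On either strand it stood in 7.14% of 27025 RefSeq promoters of the same 300 bases (250 before and 50 after the start). The CCAAT box stood in 5 of 5, against 37.9% of all promoters. Hist1h1b, whose log2 fold change was 0.17, held both boxes as Hist1h1c did. These motifs, and the core of the metal response element (TGCNCNC, in 3 of the 5 and in 50.4% of all promoters), were added after the values were seen.

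The remaining genes that rose include enzymes and receptors of the hepatocyte. Agxt, which detoxifies glyoxylate by transamination with alanine, had 242 and 239 CPM in convR females, 501 and 507 in GF females, 176 and 155 in convR males, and 255 and 291 in GF males. Its GF libraries lay above all convR libraries, with effects of 1.16 in females and 0.78 in males (log2 fold change 0.97 ± 0.11, edgeR adjusted p = 0.0196). Lhpp, a phosphatase that acts on phosphohistidine, had 47.2 and 46.8 CPM in convR females, 98.5 and 94.1 in GF females, 40.8 and 35.3 in convR males, and 66.3 and 99.1 in GF males. It had no overlap, with effects of 1.13 in females and 1.18 in males (log2 fold change 1.16 ± 0.13, edgeR adjusted p = 0.0196), and it passed in 6 of the 8 fits without 1 library, against 5 for Agxt. Avpr1a, the hepatic vasopressin receptor, rose with effects of 1.13 in females and 0.87 in males (edgeR adjusted p = 0.0257), and its GF males, at 18.8 and 18.7 CPM, lay below the higher convR female at 20.5. Klb, the coreceptor for FGF21 and FGF15, rose by 0.46 (edgeR adjusted p = 0.0473) and lost its call in each of the 8 fits without 1 library. Cd74, the invariant chain of MHC class II, rose by 0.58 (edgeR adjusted p = 0.0376), and of 28 interferon and antigen presentation genes it was the 1 called by edgeR in the 8 libraries. In this list DESeq2 called 4 higher and 1 lower, and the edgeR model of 48 libraries 0 higher and 0 lower. Other named genes that rose were Tspyl4 (1.41), Irx1 (1.29), the calcium channel subunit Cacna1d (1.16) and Cables1 (1.05), all below 13 CPM in every library. Of the 8 fits without 1 library, Avpr1a passed in 3. Tspyl4, Cables1 and Cd74 passed in 1 each, and Irx1 and Cacna1d in 0. Cd74 is also a gene of B cells and macrophages, and the 13 Kupffer cell markers summed to 608 to 733 CPM in convR and 540.4 to 673 in GF. The 8 B and plasma cell markers summed to 10.3 to 18.7 and 11.5 to 24.4 CPM, and none of the B or Kupffer markers was at 0 in all 8 libraries. The part of these cells in the Cd74 result was not tested.

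4 carboxylesterase genes, whose products hydrolyse drug and lipid esters, fell in GF. Ces2c (ENSMUSG00000061825, chromosome 8, 104847068 to 104854483) had 38.2 and 40.3 CPM in convR females, 8.99 and 12.8 in GF females, 55.7 and 65.0 in convR males, and 23.4 and 26.4 in GF males. Its 4 GF libraries lay below all 4 convR libraries (log2 fold change -1.48 ± 0.15, edgeR adjusted p = 0.0113). Ces2b, present at a low level, had 0.319 and 0.326 CPM in convR females, 0 and 0.0253 in GF females, 1.63 and 3.67 in convR males, and 0.304 and 0.342 in GF males, so that both GF females were below every other library (log2 fold change -3.18 ± 0.42, edgeR adjusted p = 0.0308). Ces2e and Ces1d, chosen after their values were seen, fell by 0.89 and 0.77 on the log2 scale (edgeR adjusted p = 0.0324 and 0.0325). Of the 16 Ces genes tested, a family chosen after its values were seen, 4 fell, 0 rose and 12 were lower in GF, with a median of -0.26. Among 28 CAR and PXR target genes, a list of drug metabolism, 2 fell, both of them carboxylesterases (Ces2b and Ces2c), and 0 rose by edgeR in the 8 libraries, with a median of -0.03. For these 28 genes DESeq2 called 3 higher and 6 lower, and the edgeR model of 48 libraries 2 higher and 4 lower. Neighbouring Ces copies share sequence, and values are uncertain between them. Ces2c passed in 7 of the 8 fits without 1 library, Ces2b in 4, Ces1d in 3 and Ces2e in 2.

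A pair of genes with a male-biased level had some of the largest decreases. Mup9, a gene of the major urinary proteins, had 0.294 and 0.299 CPM in convR females, 0.0739 and 0.126 in GF females, 20.4 and 8.59 in convR males, and 0.607 and 0.314 in GF males. Ugt2b38, a glucuronosyltransferase, had 0.490 and 1.90 CPM in convR females, 0.197 and 0.506 in GF females, 45.4 and 34.9 in convR males, and 3.54 and 2.03 in GF males. In both genes the convR males stood far above the other groups and the GF males lay within a few CPM of the females (Mup9 log2 fold change -4.33 ± 0.60, edgeR adjusted p = 0.0324, and Ugt2b38 log2 fold change -3.26 ± 0.51, edgeR adjusted p = 0.0376). They were the 2 of 25 male-biased genes that fell by edgeR in the 8 libraries, 0 rose, and the list's median log2 fold change was -0.54, with -0.05 in females and -0.92 in males. Of the 25, DESeq2 called 1 higher and 6 lower, and the edgeR model of 48 libraries 0 higher and 1 lower. Mup9 passed in 3 and Ugt2b38 in 2 of the 8 fits without 1 library. Of 19 Mup genes, a family of near-identical copies chosen after its values were seen, 2 fell (Mup9 and Mup16), and 18 had a lower level in GF. Cib3, a calcium and integrin binding protein gene, had 1.69 and 1.09 CPM in convR females, 0.0985 and 0.177 in GF females, 9.87 and 10.5 in convR males, and 0.954 and 0.514 in GF males. It was lower in GF than in convR of the same sex, and the higher GF male lay just under the lower convR female (log2 fold change -3.58 ± 0.25, edgeR adjusted p = 0.00125).

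Hist1h4m, a copy of the histone H4 genes, moved against the linker histones. It had 2.43 and 3.64 CPM in convR females, 0.0493 and 0.0759 in GF females, 1.52 and 1.48 in convR males, and 0.0868 and 0.0856 in GF males. The groups lay far apart in each sex (log2 fold change -4.75 ± 0.33, edgeR adjusted p = 0.00125), and of 11 H4 genes of the cluster it was the 1 that fell, while 10 had a positive log2 fold change that did not pass. Other named genes that fell were the disintegrin family gene Adam11 (-1.53), the sulfatide-forming sulfotransferase Gal3st1 (-1.41), the chemokine Cxcl14 (-1.38) and the Mediator-related gene Med12l (-1.37). Each had no overlap between groups. Of the 8 fits without 1 library, Med12l passed in 2, Gal3st1 in 1, and Adam11 and Cxcl14 in 0. Hspa1b, the inducible HSP70, had 5.17 and 3.39 CPM in convR females, 1.55 and 1.39 in GF females, 7.36 and 7.96 in convR males, and 4.29 and 3.05 in GF males. It fell in both sexes (log2 fold change -1.21 ± 0.18, edgeR adjusted p = 0.0371) and was the 1 of 14 stress chaperone genes called by edgeR in the 8 libraries, where DESeq2 called 1 higher and 1 lower. For these 14 genes the edgeR model of 48 libraries called 0 higher and 0 lower. Hspa1b passed in 2 of the 8 fits without 1 library. Plin4, a lipid droplet coat protein best known from adipocytes, fell by 0.96 on the log2 scale (edgeR adjusted p = 0.0473) and passed in 0 of these fits. The 8 adipocyte markers, which include it, summed to 11.1 to 29.96 CPM in convR and 8.55 to 28.1 in GF, and their part in the Plin4 result was not tested.

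Tsku and Bhlhe40 fell as well, and Tsku passed in 4 of the 8 fits without 1 library. Tsku (ENSMUSG00000049580, chromosome 7, 98350668 to 98361328) encodes tsukushi, a secreted protein of the liver. Its level was 99.7 and 71.8 CPM in convR females, 9.06 and 6.50 in GF females, 178 and 228 in convR males, and 72.0 and 55.0 in GF males. GF females held by far the least, and GF males, though below both convR males, overlapped the convR females (log2 fold change -2.47 ± 0.35, edgeR adjusted p = 0.0324). The decrease differed between the sexes, with log2 fold changes of -3.36 in females and -1.63 in males, a difference of -1.73 ± 0.32 (edgeR adjusted p = 0.0493), and Tsku was the 1 gene called both over the sexes and for a difference between them. Bhlhe40, also called Dec1, a repressor within the clock, had 210.4 and 216 CPM in convR females, 95.4 and 95.3 in GF females, 156 and 142 in convR males, and 91.5 and 108 in GF males. All GF libraries lay below all convR libraries (log2 fold change -0.79 ± 0.13, edgeR adjusted p = 0.0418), but the call was lost in each of the 8 fits without 1 library. Bhlhe40 was the 1 of 19 core clock genes called over both sexes by edgeR in the 8 libraries, and for this list DESeq2 called 0 higher and 1 lower, and the edgeR model of 48 libraries 0 higher and 0 lower.

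Genes of fatty acid synthesis had lower levels in GF, mostly in females, but none passed in the edgeR fit of the 8 libraries. Of 19 lipogenesis genes, 11 had an unadjusted p under 0.05 in that fit and all of these were lower, against 9.15% of all genes lower and 7.5% higher at that p. For these 19, DESeq2 called 0 higher and 7 lower, and the edgeR model of 48 libraries 0 higher and 2 lower. The median log2 fold change was -0.63, with -1.06 in females and -0.22 in males. Without the GF female library high in Nnt it was -0.42, and without the convR male library with muscle markers -0.63. Fasn, the fatty acid synthase, had 3417 and 2148 CPM in convR females, 912 and 667 in GF females, 1150.3 and 939 in convR males, and 658 and 487 in GF males. The GF libraries lay below all convR libraries, with the first convR female highest (log2 fold change -1.27 ± 0.24, edgeR adjusted p = 0.0602). Thrsp, a regulator of lipogenesis, had 1062 and 523 CPM in convR females, 107 and 58.2 in GF females, 438 and 399.7 in convR males, and 222 and 176 in GF males, again without overlap (log2 fold change -2.09 ± 0.47, edgeR adjusted p = 0.0939). In females both GF libraries lay below both convR libraries for 18 of the 19 genes, and in males for 11, with 5 in the opposite order. Of all genes tested, 34.6% lay so in females, with 15.2% in the opposite order, and in males 32% and 20.2%.

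Of 22 pathway lists, 8 held a gene called over both sexes by edgeR in the 8 libraries. Of all 16549 genes tested in these libraries, 8315 had a positive log2 fold change. At an unadjusted p under 0.05 in edgeR, 9.15% were lower and 7.5% higher. DESeq2 called 1.89% higher and 2.57% lower, and the edgeR model of 48 libraries 1.14% and 1.35% of its genes. All 18 proliferation genes had a negative log2 fold change (median -0.70), for example Top2a, a topoisomerase of dividing cells, at -1.17 ± 0.26, yet edgeR called 0 in the 8 libraries and 11 had an unadjusted p under 0.05, all of them lower. For this list DESeq2 called 0 higher and 4 lower, and the edgeR model of 48 libraries 0 higher and 0 lower. Of 21 genes of amino acid and urea metabolism, 19 were higher in GF (median 0.25), and Agxt was the 1 called by edgeR in the 8 libraries, while DESeq2 called 4 higher and 0 lower, and the edgeR model of 48 libraries 4 higher and 0 lower. Acute phase genes were higher in 19 of 21 cases (median 0.33), with medians of 0.60 in females and 0.08 in males. In the 8 libraries edgeR called 0 of them and 8 were higher at an unadjusted p under 0.05, while DESeq2 called 3 higher and 0 lower, and the edgeR model of 48 libraries 1 higher and 0 lower. Of 16 genes of taurine and sulfur amino acid metabolism (median 0.37), edgeR called 0 in the 8 libraries, with 6 higher and 2 lower at an unadjusted p under 0.05, while DESeq2 called 5 higher and 1 lower, and the edgeR model of 48 libraries 3 higher and 1 lower. Of 15 bile acid synthesis genes (median 0.01) edgeR called 0 in the 8 libraries, with 2 higher and 0 lower at an unadjusted p under 0.05, while DESeq2 called 1 higher and 0 lower, and the edgeR model of 48 libraries 1 higher and 0 lower. Among bile acid transport and signalling genes Klb was the 1 of 15 called by edgeR in the 8 libraries.

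The same test on the 8 libraries of each other time called 96 genes at ZT2, 3 at ZT6, 1180 at ZT14, 517 at ZT18 and 1002 at ZT22, against 83 at ZT10. The 83 genes mostly had the same direction elsewhere, 81 of them at ZT2, 74 at ZT6, 80 at ZT14, 66 at ZT18 and 68 at ZT22. In 55 of 83 the sign was the same at all 6 times, against 16.7% of all genes. Called in the same direction, as a share of the ZT10 calls and of the calls at that time, were 15 at ZT2 (18.1% and 15.6%), 3 at ZT6 (3.61% and 100.0%), 38 at ZT14 (45.8% and 3.22%), 24 at ZT18 (28.9% and 4.64%) and 30 at ZT22 (36.1% and 2.99%). Hist1h4m was low in GF throughout, with log2 fold changes from -5.91 at ZT18 to -4.02 at ZT14. Mt2, in contrast, had 1.16 at ZT2, 3.35 at ZT6, 3.72 at ZT10, 2.73 at ZT14, -0.21 at ZT18 and 0.10 at ZT22, although its difference between ZT10 and the other times did not pass (edgeR adjusted p = 0.413).

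Few genes had a germ-free effect at ZT10 that differed from the mean effect at the other 5 times. In a model of all 48 libraries, 9 of 17867 genes passed an adjusted p of 0.05 (0.0504%, edgeR), and for 7 of these (0.0392%) the absolute effect was also the largest of the 6 times. At an unadjusted p under 0.05 there were 1567 genes (8.77%), 648 of them largest at ZT10 (3.63%). Of the 7, 6 were lower at ZT10 (Tsku, Ak4, Ttl, Vps13a, Lonrf3 and Nr1i2) and 1 was higher (Hist1h1e). All 9 adjusted p-values lay just under the threshold.

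These calls were lost when any of several libraries or times was left out. No gene passed without the first convR female, the second convR male, the first GF male or the second GF male of ZT10, without ZT18, without ZT22, or with ZT6 and ZT14 as the only reference, while edgeR left 1121 to 1608 genes at an unadjusted p under 0.05 wherever it called 0. Without the first GF female 5 genes passed, without the second GF female 1, without the first convR male 3, without ZT2 29 and without ZT6 115. Without the GF female libraries high in Nnt at ZT2, ZT6 and ZT10, 2 passed, 0 of them among the 9. All 9 genes kept their direction under every alternative, and all 9 kept an unadjusted p under 0.05 in each of them except the fit to males alone, where 6 did. In females alone 12 genes passed and in males alone 0. The 9 were chosen by the contrast on libraries that these alternatives reuse. Their kept directions and low unadjusted p-values therefore largely follow from that choice.

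**Figure D2:**
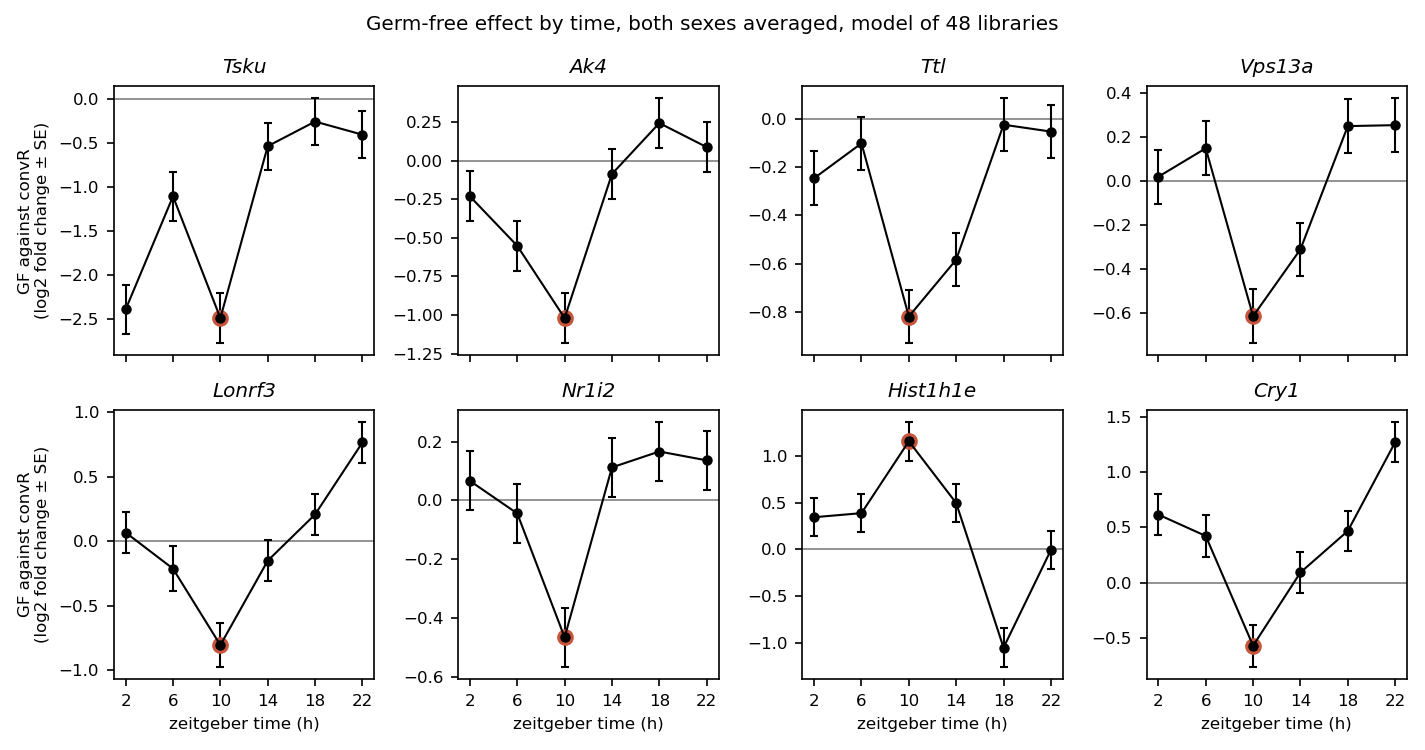
Germ-free effect (log2 fold change of GF against convR, mean of both sexes ± SE from the model of 48 libraries) at the 6 zeitgeber times for the 7 genes called time-specific and Cry1, with ZT10 in red. Tsku is also low at ZT2 (-2.40), and Cry1 changes sign between ZT10 (-0.57) and ZT22 (1.27).

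Tsku had log2 fold changes of -2.40 at ZT2, -1.11 at ZT6, -2.50 at ZT10, -0.53 at ZT14, -0.25 at ZT18 and -0.40 at ZT22. The effect at ZT10 was -1.56 ± 0.30 (edgeR adjusted p = 0.0482) against the mean of the other times, with a value at ZT2 close to it, and 4 of the 5 single differences had an unadjusted p under 0.05 in that direction. Ak4, a mitochondrial adenylate kinase, had -0.23 at ZT2, -0.55 at ZT6, -1.02 at ZT10, -0.09 at ZT14, 0.24 at ZT18 and 0.09 at ZT22, a difference of -0.91 ± 0.18 (edgeR adjusted p = 0.0482) in which 5 of 5 single differences had such a p. Its levels at ZT10 were 155 and 135 CPM in convR females, 58.6 and 34.7 in GF females, 139 and 159 in convR males, and 106 and 96.6 in GF males. All GF libraries lay below all convR libraries, and the GF females were lowest. The value of Ak4 at ZT6 is a mean over sexes with opposite directions. In females Ak4 had 104 and 59.8 CPM in convR and 26.9 and 27.0 in GF there. In males it had 47.1 and 57.1 in convR and 75.3 and 61.4 in GF. Taken by sex, the difference from the other times was -2.88 in females and -0.23 in males for Tsku, and -1.28 and -0.54 for Ak4. Whether these differences differ between the sexes was not tested.

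Nr1i2, the xenobiotic receptor PXR, had 96.0 and 80.8 CPM in convR females, 49.4 and 51.4 in GF females, 80.4 and 70.3 in convR males, and 63.7 and 60.9 in GF males at ZT10. The GF libraries lay below all convR libraries there, while its effects were 0.07 at ZT2, -0.04 at ZT6, -0.47 at ZT10, 0.11 at ZT14, 0.17 at ZT18 and 0.14 at ZT22, a difference of -0.55 ± 0.11 (edgeR adjusted p = 0.0482). Ttl, which ligates tyrosine to tubulin, had -0.25 at ZT2, -0.10 at ZT6, -0.82 at ZT10, -0.58 at ZT14, -0.02 at ZT18 and -0.05 at ZT22 and differed by -0.62 ± 0.12 (edgeR adjusted p = 0.0482). It was also called at ZT10 itself (log2 fold change -0.82 ± 0.10, edgeR adjusted p = 0.0257). Vps13a, a lipid transfer protein, differed by -0.69 ± 0.13 (edgeR adjusted p = 0.0482) and stood at -0.61 at ZT10 against -0.31 at ZT14, the next lowest. Lonrf3, a RING finger gene of the X chromosome, differed by -0.94 ± 0.18 (edgeR adjusted p = 0.0482), from -0.80 at ZT10 to 0.77 at ZT22, and at ZT10 its effect was -1.56 in females and -0.05 in males.

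Hist1h1e had effects of 0.34 at ZT2, 0.39 at ZT6, 1.16 at ZT10, 0.49 at ZT14, -1.05 at ZT18 and -0.01 at ZT22, and the difference was 1.12 ± 0.22 (edgeR adjusted p = 0.0482). The median over the 5 H1 genes ran the same way, from 1.16 at ZT10 to -1.40 at ZT18, though the difference of the other 4 did not pass, with 1.88 ± 0.42 (edgeR adjusted p = 0.0835) for Hist1h1d and 1.24 ± 0.31 (edgeR adjusted p = 0.144) for Hist1h1c. The shift was not particular to linker histones. Median effects at ZT10 and ZT18 were -0.28 and -1.32 for H2A and -0.34 and -1.08 for H2B genes of the cluster. For H3 they were -0.34 and -1.27, and for H4 0.43 and -0.68.

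Cry1 and Tmem57, the latter chosen after its values were seen, passed the time test with a larger absolute effect at another time. Cry1 (ENSMUSG00000020038, chromosome 10, 85131700 to 85185064) encodes cryptochrome 1, a repressor of CLOCK and BMAL1. At ZT10 it had 12.5 and 9.07 CPM in convR females, 5.22 and 5.39 in GF females, 10.5 and 11.7 in convR males, and 10.7 and 7.79 in GF males. GF females lay below every other library, and GF males overlapped convR males. The effects were 0.62 at ZT2, 0.42 at ZT6, -0.57 at ZT10, 0.09 at ZT14, 0.47 at ZT18 and 1.27 at ZT22, a difference of -1.15 ± 0.21 (edgeR adjusted p = 0.0482), with 5 of 5 single differences at an unadjusted p under 0.05. The value at ZT6 is a mean over sexes with opposite directions. In females Cry1 had 10.9 and 4.93 CPM in convR and 21.6 and 21.0 in GF there. In males it had 8.83 and 10.4 in convR and 4.53 and 7.42 in GF. The 130 bases before the start of Cry1 hold an E-box, the CACGTG that CLOCK and BMAL1 bind, 60 bases before the start and shown in capitals, and are printed because Cry1 had the lowest p of the time test. The letters of the H1 box and of the CCAAT box also stand in this stretch, in lower case.
Cry1 (chr10:85185055-85185184, minus strand): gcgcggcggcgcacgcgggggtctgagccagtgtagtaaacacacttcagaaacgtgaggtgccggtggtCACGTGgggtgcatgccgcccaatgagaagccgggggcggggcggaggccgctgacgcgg
An E-box stood in 7.24% of the 27025 promoters and in 1 of the 6 promoters of genes called time-specific and lower. Of the other motifs looked for on both strands, the D-box (TTATGNAA) stood in 1 of these 6, against 3.52% of all promoters. The element of ROR and REV-ERB (AGGTCA), the heat shock element, the sterol response element (TCACNCCAC), the glucocorticoid element and the cAMP element (TGACGTCA) stood in 0 of 6, against 16.0%, 0.529%, 1.22%, 0.463% and 1.88% of all promoters. The promoter of Hist1h1e held none of these 7. The 3 motifs added later stood in 2 (H1 box), 4 (CCAAT box) and 3 (metal response element core) of the 6.

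By list, the time contrast leaned one way for lipogenesis and the other for acute phase genes, and further lists leaned as well. All 19 lipogenesis genes had a more negative effect at ZT10 than on average at the other times, with a median difference of -0.57 against 0.00 over all 17867 genes. None passed in edgeR or in DESeq2, and 8 had an unadjusted p under 0.05 (4.53% of all genes in that direction), among them Fasn (-1.43) and Thrsp (-1.86). The median effect was -0.80 at ZT6 and -0.63 at ZT10, and 0.28, 0.44 and 0.64 at ZT14, ZT18 and ZT22. For acute phase genes 19 of 21 differences were positive (median 0.34), 8 with an unadjusted p under 0.05 (4.24% of all genes in that direction) and 0 called by either tool. For proliferation genes the effect was -0.70 at ZT10, and between -1.04 and -0.66 at the other times. Negative differences were found for 22 of 25 cholesterol synthesis genes (median -0.31) and 21 of 28 CAR and PXR targets (median -0.19). Interferon and antigen presentation genes were positive in 22 of 28 cases (median 0.31). Some cell type markers leaned as uniformly. All 13 Kupffer cell markers and all 6 neutrophil and monocyte markers tested had positive differences (medians 0.15 and 0.44). All 8 B and plasma cell markers had negative ones (median -0.32). The part of these cells in the list results was not tested. Of all 17867 genes, 8778 were negative. Without the GF female libraries high in Nnt, the median was -0.47 for lipogenesis, -0.58 for cholesterol synthesis and 0.38 for acute phase genes.

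**Figure D3:**
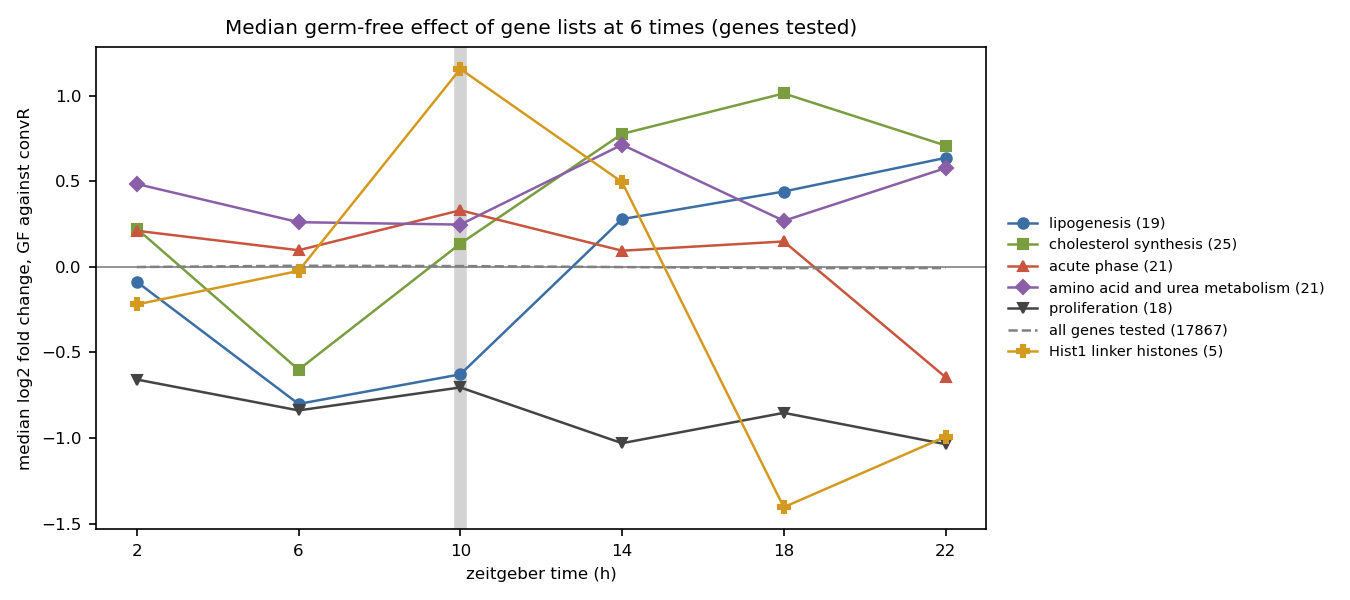
Median log2 fold change of GF against convR over the genes of 6 groups and over all genes tested, at the 6 zeitgeber times (model of 48 libraries; the number of genes tested stands in the legend). At ZT10, marked in grey, the linker histone median is 1.16 and the lipogenesis median -0.63.

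The germ-free effect at ZT10 differed between the sexes for the cytochromes Cyp3a11 and Cyp2b9, the STAT5 inhibitor Cish, chaperones of the endoplasmic reticulum and 4 clock genes. The difference between the effects (female minus male) passed for 144 of 16549 genes (0.87%, edgeR), with the female effect higher for 71 (0.429%) and lower for 73 (0.441%). With library size as the only scaling the split was 58 and 90. Of the 144, 62 were higher in GF females and lower in GF males, 70 the reverse, and 12 had the same direction in both. The 144 were chosen by the difference between the sexes in these same libraries, so a high share of opposite directions follows from that choice. The same holds for directions and low unadjusted p-values kept in the fits below. The count was 0 without the convR male library with muscle markers, where 1933 genes had an unadjusted p under 0.05 in edgeR, and 43 without the other convR male. It was 4 without the first convR female, 280 and 59 without the first and second GF female, and 17 and 20 without the first and second GF male. Without the muscle-marked library all 144 kept their direction and an unadjusted p under 0.05, and without the library high in Nnt 39 of the 144 remained called. DESeq2 on the 8 libraries called 332 genes with the female effect higher (2.01%) and 385 with it lower (2.33%).

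Cish, a feedback inhibitor of STAT5 that growth hormone induces, had 37.8 and 35.4 CPM in convR females, 5.64 and 13.1 in GF females, 4.52 and 5.67 in convR males, and 39.6 and 17.1 in GF males. The convR females and the GF males were high and the GF females and convR males low, and the sex difference was -4.38 ± 0.58 (edgeR adjusted p = 0.0259). Its replicates lay far apart elsewhere, at 33.6 and 2.55 CPM in convR males at ZT14 and 4.09 and 28.4 in GF males at ZT6. At ZT2 and ZT22 the order of groups within each sex was that of ZT10. At ZT6 GF females, with 20.1 and 29.1 CPM, lay above convR females, with 9.02 and 11.6. At ZT18 GF and convR libraries overlapped in males. In females they lay close together there, at 12.9 and 12.1 CPM in convR and 12.9 and 13.4 in GF. Of 13 genes of growth hormone and STAT5 signalling tested, Cish was the 1 called by edgeR for the sex difference, and DESeq2 called 0 with the female effect higher and 2 with it lower. Cyp2b9, a female-predominant cytochrome P450, had 486 and 468 CPM in convR females, 432 and 406 in GF females, 0.110 and 0.0401 in convR males, and 10.7 and 20.6 in GF males. It was near 0 in convR males and reached 10.7 and 20.6 CPM in GF males, with a difference of -8.02 ± 0.59 (edgeR adjusted p = 0.00335). Cyp3a11, the main drug-metabolising P450, had 2181 and 2646 CPM in convR females, 725 and 1115 in GF females, 5573 and 5416 in convR males, and 150.4 and 60.2 in GF males. It was lower in both sexes of GF and far lower in males, a difference of 4.37 ± 0.51 (edgeR adjusted p = 0.0185). At the other 5 times Cyp3a11 held 72.7 to 259 CPM in GF males and 2739 to 5089 in convR males. In females it held 604 to 1339 in GF and 2606 to 3734 in convR. Cyp2b9 held 0 to 0.294 CPM in convR males and 0.150 to 63.5 in GF males at those times. In females it held 355 to 550 in convR and 232 to 509 in GF. Whether either sex difference was particular to ZT10 was not tested.

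Mup17 (difference 4.20), Zbtb7c (3.91), the glutathione transferase Gsta1 (3.21) and Ces4a (3.01) were lower in GF males. Nipal1, a magnesium transporter family gene (-4.51), and Atp6v0d2, a proton pump subunit (-4.02), were higher in GF males, and Erbb4, a receptor tyrosine kinase (-3.46), was lower in GF females. Among male-biased genes 3 of 25 differed with the female effect higher and 0 with it lower, and among female-biased genes 0 and 4 of 28 by edgeR. DESeq2 called 8 and 0 of the male-biased and 0 and 10 of the female-biased genes.

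A group of endoplasmic reticulum chaperones had a higher effect in females than in males. Of 19 genes of the unfolded protein response, 5 differed with the female effect higher (Calr, Dnajb11, Sdf2l1, Pdia4 and Hyou1) and 0 with it lower. DESeq2 called 7 and 0. Sdf2l1, a component of the chaperone complex of the endoplasmic reticulum, had 10.2 and 11.4 CPM in convR females, 51.4 and 23.1 in GF females, 28.9 and 27.4 in convR males, and 16.9 and 14.1 in GF males, a difference of 2.70 ± 0.44 (edgeR adjusted p = 0.0422). Hyou1, a chaperone of the HSP70 family, had 93.2 and 144 CPM in convR females, 232 and 185 in GF females, 207 and 257 in convR males, and 110.1 and 123 in GF males, a difference of 1.86 ± 0.32 (edgeR adjusted p = 0.0451). In both genes GF females lay above convR females and GF males below convR males, with the first GF female highest for Sdf2l1. Hspa5, the central chaperone of the response, had a difference of 0.34 ± 0.29 (edgeR adjusted p = 0.594), which did not pass.

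The clock list held 4 edgeR calls for the sex difference. Per2, a repressor of the clock loop, had 66.1 and 46.8 CPM in convR females, 23.1 and 14.1 in GF females, 34.4 and 33.6 in convR males, and 50.4 and 41.1 in GF males. The GF females were the lowest and the GF males lay above the convR males, with effects of -1.50 in females and 0.48 in males and a difference of -1.98 ± 0.34 (edgeR adjusted p = 0.045). Clock had a difference of 1.05 ± 0.17 (edgeR adjusted p = 0.0409) and Nfil3, a repressor of D-box genes, 1.54 ± 0.28 (edgeR adjusted p = 0.0493), with higher values in GF females and lower values in GF males. Of 19 clock genes 2 had a higher and 2 a lower female effect by edgeR, and DESeq2 called 3 and 7. At an unadjusted p under 0.05, 3 were higher and 11 lower, against 8.41% and 9.48% of all genes, and the median difference was -0.55 against -0.01 over all genes. The second lower call was Ciart, a clock repressor listed in the files as Gm129, with -2.53 ± 0.31 (edgeR adjusted p = 0.0185). At ZT6 the direction also differed between the sexes for the clock genes Dbp and Arntl. Dbp had 97.9 and 127 CPM in convR females and 4.57 and 2.07 in GF females. In males it had 38.7 and 30.9 in convR and 149 and 179 in GF. Arntl had 6.58 and 9.84 CPM in convR females and 32.3 and 35.9 in GF females. In males it had 16.6 and 22.6 in convR and 2.49 and 3.09 in GF. The sex difference was not tested at ZT6.

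**Figure D4:**
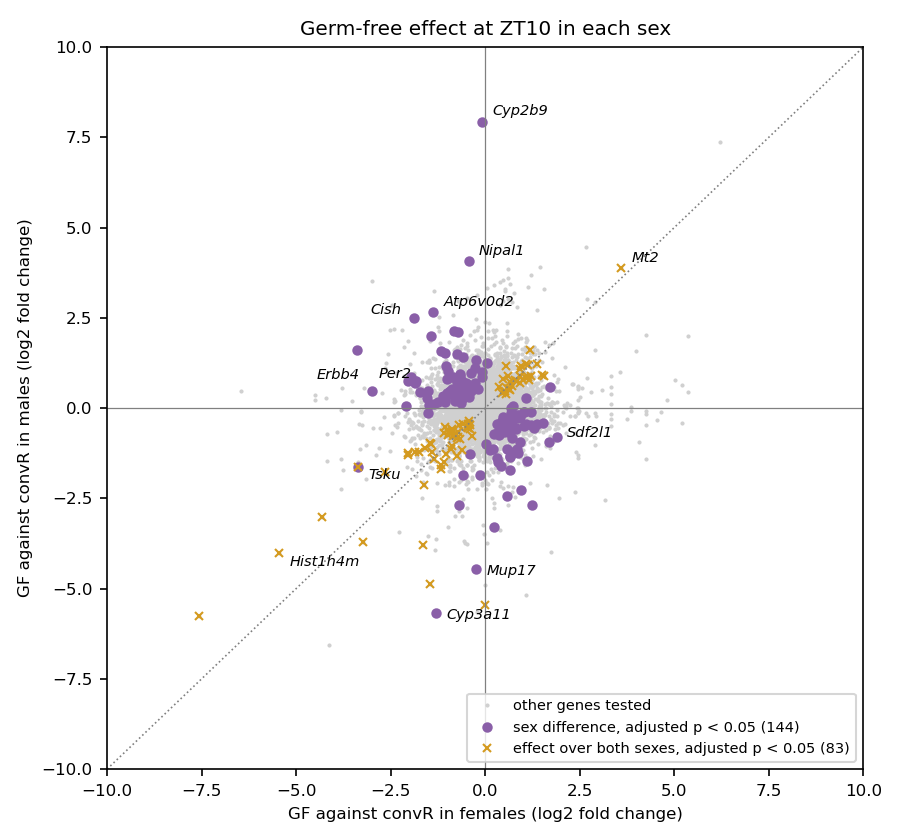
Log2 fold change of GF against convR at ZT10 in females (horizontal axis) and in males (vertical axis), 1 point per gene tested. Purple points are the 144 genes whose effect differed between the sexes and gold crosses the 83 called over both sexes, and the dotted line marks equal effects. Cyp2b9 lies near 0 in females and at 7.94 in males.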

How the data were processed

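Liver RNA was measured in 48 libraries, and the 8 of ZT10 are the comparison here. The deposited values are raw counts over exons, made by the authors and held in 1 table of 38087 genes for each sex. The submitters' processing notes give STAR 2.4.0i and mm10. The sources used here do not name the counting tool, its use of strand or its treatment of reads with several matches. Libraries were grouped by the sex, microbiome status and ZT in their labels.

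GF was compared with convR in the 8 libraries by the edgeR 4.0.16 quasi-likelihood F test (R 4.3.3, TMM scaling, filterByExpr at its minimum count of 10 and minimum total of 15) with sex as a block. The sex difference was the interaction in the same libraries. The time contrast (effect at ZT10 minus the mean of the other 5) used all 48 libraries and 1 coefficient per combination of sex, status and ZT. Log2 fold changes carry ± SE, p-values were adjusted by Benjamini-Hochberg over all genes tested, and the threshold was 0.05. A gene was called time-specific where its absolute effect was also the largest of the 6 times. The scripts were tested on simulated data. CPM are counts per 1000000 counts of a library, and intervals from these depths cover counting error only.

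Named genes are the 10 highest and 10 lowest log2 fold changes called at ZT10 with the same direction in both sexes, those called time-specific, and the 5 highest and 5 lowest sex differences, all with a mean log2 CPM not under 0. Members of the gene lists and Nnt could be named as well. Predicted genes and pseudogenes were counted, not named. A gene among the 10 highest is not reported here. Members and lists were chosen with earlier results of these data known. Lists were matched by Ensembl identifier. Coordinates are GENCODE M21 on GRCm38, matched for 36308 of 38087 genes. The 2 libraries of each group differed by far more than sampling noise. Alternatives were RLE or no composition scaling, no filter, robust dispersions, a replicate block, DESeq2 1.42.0, each library or time left out, each sex alone, the model of all 48 libraries, a fold threshold, and neighbouring times as the reference.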

Additional observations from a re-analysis of the deposited data

Results flagged for a closer look

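Among 56 groups of 4 libraries (the named and list genes called at ZT10, and Nnt, in convR and in GF), 4 held a library far from the other 3 by Dixon's criterion. For 4 values of 1 normal population chance marks about 1 group in 20. That rate does not apply directly here, since each group holds 2 females and 2 males. Nnt was included because it was already reported to mark libraries that stand apart. Nnt stood at 175 CPM in the second GF female against 57.2 to 64.3 in the other GF libraries. Med12l was also highest there, at 3.06 CPM against 1.54 to 1.74. Lhpp was lowest in the first GF male, at 66.3 CPM against 94.1 to 99.1, and Hist1h1d lowest in the first convR female, at 7.80 CPM against 9.04 to 9.26.

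The germ-free effect at ZT10 differed between the sexes, by the edgeR interaction test, for Cyp3a11 (female minus male 4.37), Mup17 (4.20), Zbtb7c (3.91), Gsta1 (3.21), Ces4a (3.01), Cyp2b9 (-8.02), Nipal1 (-4.51), Cish (-4.38), Atp6v0d2 (-4.02) and Erbb4 (-3.46). It also differed for the chaperones Sdf2l1 (2.70), Hyou1 (1.86), Dnajb11 (1.26), Calr (1.19) and Pdia4 (1.14), and for Per2 (-1.98), Gm129, the older symbol of Ciart (-2.53), Clock (1.05) and Nfil3 (1.54).

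The effect at ZT10 differed from the mean of the other 5 times for Tsku (-1.56), Cry1 (-1.15), Hist1h1e (1.12), Lonrf3 (-0.94), Ak4 (-0.91), Vps13a (-0.69), Ttl (-0.62), Nr1i2 (-0.55) and Tmem57 (-0.45).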

How the results depend on the processing

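The number of genes called moved with the processing more than their direction did. The genes were chosen by tests on the libraries that the alternatives reuse, so kept directions largely follow from that choice. Over both sexes, 83 genes became 150 with library size as the only scaling, 629 without a filter, 737 with DESeq2, 14 in females alone, 461 in males alone, 445 in the model of all 48 libraries (64 of the 83 among them), 35 with an absolute log2 fold change of at least 1, and 4 to 96 with 1 library left out. The 9 genes of the time contrast, and the 7 time-specific ones, became 0 and 0 with library size only, 0 and 0 with robust dispersions, 374 and 122 without a filter, 29 and 20 without ZT2, 115 and 63 without ZT6, 0 and 0 without ZT18, 0 and 0 without ZT22, 0 and 0 with neighbouring times only, 0 and 0 in males alone, 2 and 1 without the libraries high in Nnt, and 0 to 8 and 0 to 5 with 1 library left out. In females alone 12 were time-specific, and DESeq2 called 90 in the contrast. Where a count was 0, edgeR left 1121 to 1608 genes at an unadjusted p under 0.05. The 144 sex differences became 1543 without a filter, 717 with DESeq2 and 0 to 280 with 1 library left out. The cause was not tested for any of these, and the fits that leave libraries out also have fewer samples. Over 63 results for named genes and 1070 alternatives, 534 kept their call, 536 lost it and 0 changed direction. Replicate numbers shared by GF and convR do not pair the libraries: over 12 combinations of sex and time, deviations correlated at -0.20 to 0.27, 3 of them above 0.1. With a replicate block 5 genes were called over both sexes, 0 in the time contrast (0 time-specific) and 168 for the sex difference.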

Other observations

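The germ-free effect on cholesterol synthesis genes had a different median in each sex at ZT10. The median log2 fold change was -0.42 in females and 0.56 in males, and in males both GF libraries lay above both convR libraries for 21 of 25 genes, against 0 in females, where 11 lay below. Of all genes tested, 20.2% lay above in males and 15.2% above and 34.6% below in females. The sex difference passed for 1 of the 25 in edgeR (Sc5d, a sterol desaturase) and for 6 in DESeq2, and 14 had a lower female effect at an unadjusted p under 0.05, against 9.48% of all genes.

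Core histone genes of the Hist1 cluster had lower medians than the linker histones. The median log2 fold change at ZT10 was -0.26 over 7 H2A genes, -0.28 over 11 H2B genes and -0.31 over 9 H3 genes, with 0, 4 and 2 of these positive, while the 11 H4 genes had a median of 0.41. Sult1e1, the estrogen sulfotransferase, had 0.637 and 0.299 CPM in convR females, 63.0 and 1.69 in GF females, 0.0551 and 0.0401 in convR males, and 2.02 and 13.2 in GF males at ZT10, so that the 2 libraries of each GF sex lay far apart.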
